A study of Mus musculus with 12 samples.

Results

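The cellular oxygen-sensing circuit of mouse CD4+ T cells, also called helper T cells, was followed through 9 genes: Hif1a, Arnt, Egln1, Egln2, Egln3, Vhl, Bnip3, P4ha1 and Vegfa. They were taken by gene symbol, and all 9 were found among the 17203 genes measured. RNA came from primary CD4+ T cells of C57BL/6 mice in 4 groups of 3 libraries. Unstimulated cells were freshly isolated and not activated, CD3 cells were activated for 72 h by plate-bound anti-CD3, which engages the T cell receptor complex, and CD3_CD28 cells received soluble anti-CD28, which engages a costimulatory receptor, in addition for the same 72 h. CD3_CD28_ICOS cells were given anti-CD3, anti-CD28 and antibody to ICOS, a costimulatory receptor related to CD28, all in soluble form for 72 h. No allele or genetic change is named for any group, although the series' own design note mentions transduction. Since the unstimulated cells were fresh, activation and 72 h of culture cannot be told apart. Since anti-CD3 was soluble in CD3_CD28_ICOS, anti-ICOS and the format of anti-CD3 cannot be told apart in the comparison with CD3_CD28. In the comparison with CD3, anti-CD28, anti-ICOS and the format of anti-CD3 all differ and cannot be told apart. The labels give neither the oxygen level of the cultures nor whether replicates came from separate animals, so the p-values rest on spread between libraries that may be technical.

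Hypoxia-inducible factor is a dimer of an oxygen-regulated alpha subunit, encoded by Hif1a, and a steady partner encoded by Arnt. When oxygen is present, prolyl hydroxylases encoded by Egln1, Egln2 and Egln3 mark the alpha subunit, and the product of Vhl, the recognition part of a ubiquitin ligase, binds the marked protein and sends it to degradation. The alpha subunit is therefore controlled largely as a protein, which RNA levels do not show. Bnip3, P4ha1 and Vegfa are classical targets of the factor, and Egln1 and Egln3 are both its regulators and its targets. In T cells, receptor signals raise the alpha subunit even with oxygen present, and the factor is known there for driving glycolytic genes.

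The factor binds DNA at a core of ACGTG or GCGTG. The promoters of 4 genes whose RNA moved together and that held a match are shown, with each match to that core on either strand in capitals. The sequences are from RefSeq on build GRCm38.p6 and run 5′ to 3′ on the strand of the gene. They cover the 250 bases before the RefSeq start site, except that Egln1 stops 2 bases past its last match, which already lies at the edge of the first exon that GENCODE gives it. The stretches are chr7:138909507-138909756 on the minus strand for Bnip3, chr10:59323046-59323295 on the plus strand for P4ha1, chr8:124949316-124949504 on the minus strand for Egln1 and chr12:54203875-54204124 on the minus strand for Egln3.
Bnip3: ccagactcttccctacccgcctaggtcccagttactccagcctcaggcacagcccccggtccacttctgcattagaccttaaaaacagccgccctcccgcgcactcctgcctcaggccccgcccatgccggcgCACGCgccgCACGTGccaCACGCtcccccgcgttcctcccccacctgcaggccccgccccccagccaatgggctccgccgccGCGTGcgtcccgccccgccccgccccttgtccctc
P4ha1: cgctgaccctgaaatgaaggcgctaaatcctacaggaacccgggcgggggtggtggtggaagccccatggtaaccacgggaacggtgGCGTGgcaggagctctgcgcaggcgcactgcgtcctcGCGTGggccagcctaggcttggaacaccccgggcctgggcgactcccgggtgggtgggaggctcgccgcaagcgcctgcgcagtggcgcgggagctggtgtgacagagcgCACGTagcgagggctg
Egln1: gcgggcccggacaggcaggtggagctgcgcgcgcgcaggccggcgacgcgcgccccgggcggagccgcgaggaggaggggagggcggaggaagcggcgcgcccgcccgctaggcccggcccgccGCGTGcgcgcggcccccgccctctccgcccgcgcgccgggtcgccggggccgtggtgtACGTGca
Egln3: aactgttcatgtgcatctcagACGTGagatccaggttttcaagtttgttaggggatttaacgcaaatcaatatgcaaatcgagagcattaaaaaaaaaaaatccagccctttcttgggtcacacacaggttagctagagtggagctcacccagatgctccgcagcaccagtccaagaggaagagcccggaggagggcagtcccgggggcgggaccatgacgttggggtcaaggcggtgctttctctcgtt
Bnip3 held 5 matches, of which 2 overlap in the palindrome CACGTG, P4ha1 held 3, Egln1 held 2 and Egln3 held 1. Over the whole 300-base RefSeq windows, from 250 bases before the start to 50 after, all 9 genes had an entry, with 11 promoters in all. At least 1 match lay in 9 of the 11 promoters and in 8 of the 9 genes, against 43.8% of all 32851 promoters of that length. Vhl had no match, and the upstream of the 2 Vegfa promoters had none while the other held 2. The RNA of Egln2 and Hif1a did not move with that of the 4 genes shown. Yet the 2 Egln2 promoters held 6 matches and 1 match, and that of Hif1a held 3. The core is short and common in GC-rich promoters: the GC content was 86.0% for Egln1 and 71.7% for Bnip3. A match describes letters only, and no binding was measured.

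Expression was given in CPM, counts per 1e6 assigned reads, which does not correct for gene length. The estimated depth was 11.4 to 37.5 in units of 1e6 reads, so that 1 read was worth 0.0267 to 0.0879 CPM. The summed level of 10 T cell markers was 6839 to 7740 CPM in Unstimulated and 3986 to 4663 CPM in CD3. It was 3533 to 4043 CPM in CD3_CD28 and 5733 to 6193 CPM in CD3_CD28_ICOS. Cd4, which is among them, lay between 528 and 1178 CPM. The summed level of 11 B cell markers was 147 to 270 CPM in Unstimulated and 384 to 831 CPM in CD3. It was 9.22 to 14.5 CPM in the CD3_CD28 libraries and 267 to 737 CPM in the CD3_CD28_ICOS libraries. The summed level of 13 myeloid markers was 248 to 637 CPM in Unstimulated and 14.8 to 74.5 CPM in the stimulated libraries, with Lyz2 at 0 in all 3 CD3_CD28 libraries. Markers of pancreatic acinar cells summed to 446 to 2324 CPM in Unstimulated and at most 1.67 CPM elsewhere. A ribosomal RNA gene took 11.8% of CD3_CD28 replicate 1 and 1.26 to 3.20% of the other libraries. CD3_CD28_ICOS replicate 2 stood apart from its group in glycolytic genes, as described below.

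Changes are log2 fold changes of log2(CPM + 1) ± SE from limma, fitted on the 9826 genes that reached 10 CPM in at least 3 libraries. The SE of a gene rests on a spread shared by the 4 groups, so each comparison also holds the spread of groups outside it. A gene is called higher or lower at an adjusted p below 0.05 (Benjamini-Hochberg over those genes), and groups do not overlap when every library of a group lies above every library of the other. Hif1a, Arnt, Egln1, Egln2, Vhl and P4ha1 reached 10 CPM in all 12 libraries. Egln3 and Bnip3 reached it in 9 and Vegfa in 8, in each case in no Unstimulated library, so these 3 genes entered the test through the stimulated groups and their calls against Unstimulated were bound to the filter. In bulk RNA, fewer cells of a type and less RNA per cell cannot be told apart.

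Hif1a (chr12:73901375-73947531, plus strand, build mm10), the alpha subunit, was 5.12 to 6.67 times as abundant after activation and was highest after anti-CD3 alone. Its levels were 145, 144 and 136 CPM in Unstimulated, 1094, 902 and 840 CPM in CD3, 841, 630 and 705 CPM in CD3_CD28, and 698, 736 and 756 CPM in CD3_CD28_ICOS. Every stimulated library lay above every Unstimulated library, and the CD3 libraries met the CD3_CD28 range only at its top, where 841 and 840 CPM were nearly equal. The mean in CD3 was 6.67 times that in Unstimulated (log2 fold change 2.72 ± 0.11, adjusted p = 2.23e-10). From CD3 to CD3_CD28, Hif1a fell by 0.38 ± 0.11 on the log2 scale (adjusted p = 0.00858). That call was lost when the libraries were scaled by the median of ratios (-0.13, adjusted p = 0.432; range over the alternatives 0.00173 to 0.432). CD3_CD28 and CD3_CD28_ICOS were at 725 ± 107 and 730 ± 29.9 CPM (SD, n = 3), a difference of 0.02 ± 0.11 in log2 that did not pass the test (adjusted p = 0.897).

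Arnt (chr3:95434388-95497241, plus strand), the partner subunit, stayed within a narrow range. It was at 94.1, 99.9 and 73.6 CPM in Unstimulated, 79.1, 88.7 and 90.4 CPM in CD3, 102, 122 and 105 CPM in CD3_CD28, and 89.9, 101 and 97.5 CPM in CD3_CD28_ICOS. The CD3_CD28 libraries were the highest and did not overlap any other group. Arnt rose by 0.34 ± 0.12 in log2 from CD3 to CD3_CD28 (adjusted p = 0.0191), a call that did not hold without CD3 replicate 1, where the adjusted p was 0.0775, nor without CD3_CD28 replicate 2, where it was 0.0840. Its range over the alternatives was 0.000218 to 0.0840. In CD3 against Unstimulated the change was -0.04 ± 0.12, its sign turned in 3 of 23 alternatives, and under quantile normalization it passed the test as lower (-0.24, adjusted p = 0.0482; range 0.0482 to 0.990).

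The 3 prolyl hydroxylases differed from each other. Egln3 (chr12:54178981-54203861, minus strand) covered the widest range of the 9 genes. It was at 2.31, 2.33 and 2.09 CPM in Unstimulated, which corresponds to 52, 64 and 48 reads, at 94.8, 192 and 115 CPM in CD3, at 868, 785 and 806 CPM in CD3_CD28, and at 15.7, 157 and 38.8 CPM in CD3_CD28_ICOS. CD3_CD28 stood above all other libraries, whereas CD3_CD28_ICOS replicate 2 lay within the CD3 range and the other CD3_CD28_ICOS libraries lay below it. The mean in CD3_CD28 was 6.11 times that in CD3 (log2 fold change 2.67 ± 0.66, adjusted p = 0.00651), and the mean in CD3_CD28_ICOS was 0.0860 times that in CD3_CD28 (-4.12 ± 0.66, adjusted p = 0.000500).

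Egln1 (chr8:124908587-124949325, minus strand), the main oxygen sensor in most tissues, followed the same order with smaller steps. Its levels were 104, 102 and 108 CPM in Unstimulated, 246, 320 and 248 CPM in CD3, 533, 616 and 526 CPM in CD3_CD28, and 123, 386 and 162 CPM in CD3_CD28_ICOS. All stimulated libraries exceeded all Unstimulated ones, and CD3_CD28 did not overlap CD3. The rise from CD3 to CD3_CD28 was 1.05 ± 0.32 in log2 (adjusted p = 0.0162). The adjusted p was 0.0529, 0.0532 and 0.0523 without CD3 replicate 1, CD3 replicate 3 or CD3_CD28 replicate 2, over a range of 6.36e-06 to 0.0532. CD3_CD28_ICOS was 0.91 ± 0.32 above Unstimulated (adjusted p = 0.0326), a call lost in 6 of 23 alternatives, where the adjusted p reached 0.104.

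Egln2 (chr7:27158658-27166803, minus strand), the hydroxylase that is not known as a hypoxia-induced gene, went the other way. It was at 52.8, 48.4 and 46.1 CPM in Unstimulated, 49.5, 47.6 and 47.0 CPM in CD3, 32.8, 36.2 and 35.8 CPM in CD3_CD28, and 47.3, 42.8 and 46.4 CPM in CD3_CD28_ICOS. CD3_CD28 lay below every other library. Egln2 fell by 0.45 ± 0.09 in log2 from CD3 to CD3_CD28 (adjusted p = 0.000588) and was 0.37 ± 0.09 higher in CD3_CD28_ICOS than in CD3_CD28 (adjusted p = 0.00210). The latter was 0.17 with an adjusted p of 0.0539 under median-of-ratios scaling (range 0.00175 to 0.0539). Against Unstimulated, CD3 and CD3_CD28_ICOS differed by -0.03 ± 0.09 and -0.11 ± 0.09 as deposited, and both passed the test as lower under quantile normalization and under median-of-ratios scaling.

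Since CPM counts a long transcript more often, the 3 hydroxylases were compared per kilobase of exon in GENCODE. On that scale Egln3 made up 1.77 ± 0.115% of their summed level in Unstimulated, 34.4 ± 5.71% in CD3, 64.7 ± 2.86% in CD3_CD28 and 20.6 ± 11.1% in CD3_CD28_ICOS (SD, n = 3). Egln1 was the most abundant in every library outside CD3_CD28, at 49.9 to 63.6%. In CD3_CD28 it held 32.7 ± 2.76% and Egln2 only 2.63 ± 0.187%. Within CD3_CD28_ICOS, the share of Egln1 was 59.4 ± 0.489%, while that of Egln3 was 10.3, 32.4 and 19.1% and that of Egln2 was 29.7, 8.42 and 21.7%.

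**Figure D1:**
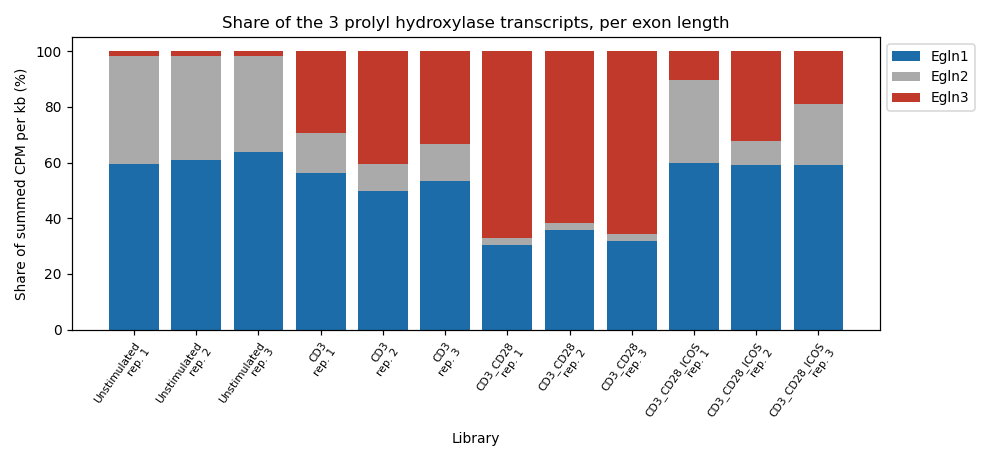
Share of Egln1, Egln2 and Egln3 in their summed CPM per kilobase of exon (y axis, percent) in each of the 12 libraries (x axis). Egln3 is the largest part in the 3 CD3_CD28 libraries, at 61.5 to 67.1%, and the smallest in Unstimulated, at 1.65 to 1.88%.

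Vhl (chr6:113623959-113631634, plus strand), which recognises the hydroxylated alpha subunit, rose with activation and again with anti-CD28. Its levels were 22.9, 23.8 and 16.4 CPM in Unstimulated, 37.1, 42.2 and 34.9 CPM in CD3, 61.4, 77.0 and 56.4 CPM in CD3_CD28, and 31.9, 50.2 and 35.4 CPM in CD3_CD28_ICOS. Unstimulated lay below and CD3_CD28 above all other libraries, and the other groups overlapped. The change was 0.84 ± 0.18 in log2 from Unstimulated to CD3 (adjusted p = 0.000885), 0.75 ± 0.18 from CD3 to CD3_CD28 (adjusted p = 0.00268) and -0.73 ± 0.18 from CD3_CD28 to CD3_CD28_ICOS (adjusted p = 0.00298). These 3 calls held in all 23 alternatives.

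Among the targets, Bnip3 (chr7:138890836-138909520, minus strand) encodes a mitochondrial protein that promotes mitophagy, the removal of mitochondria. It was at 2.49, 2.29 and 3.17 CPM in Unstimulated, 57.3, 88.9 and 63.7 CPM in CD3, 163, 173 and 147 CPM in CD3_CD28, and 19.3, 99.4 and 35.0 CPM in CD3_CD28_ICOS. The mean in CD3_CD28 was 2.30 times that in CD3, and those groups did not overlap. The log2 fold change of 1.21 ± 0.45 passed the test (adjusted p = 0.0379), and the call was lost in 9 of 23 alternatives (range 5.22e-05 to 0.109), 8 of which left out 1 library. Bnip3 was 1.95 ± 0.45 lower in CD3_CD28_ICOS than in CD3_CD28 on the log2 scale (log2 fold change -1.95, adjusted p = 0.00371).

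Vegfa (chr17:46016993-46032370, minus strand), the angiogenic growth factor, was at 0.888, 0.437 and 1.74 CPM in Unstimulated, or 20, 12 and 40 reads. It reached 35.3, 61.8 and 48.8 CPM in CD3, 131, 139 and 128 CPM in CD3_CD28, and 7.62, 54.7 and 20.6 CPM in CD3_CD28_ICOS. CD3_CD28 was tight and above every other library, and CD3_CD28_ICOS spanned the widest range. From CD3 to CD3_CD28 the log2 fold change was 1.46 ± 0.55 (adjusted p = 0.0386), a call lost in 10 of 23 alternatives (range 6.37e-05 to 0.121), 8 of them with 1 library left out. That SE also holds the wide spread of CD3_CD28_ICOS, a group outside this comparison. From CD3_CD28 to CD3_CD28_ICOS it was -2.61 ± 0.55 (adjusted p = 0.00206).

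P4ha1 (chr10:59323296-59373305, plus strand) encodes the catalytic subunit of the collagen prolyl hydroxylase, an enzyme of the secretory pathway distinct from the oxygen-sensing hydroxylases. It was at 76.6, 71.3 and 126 CPM in Unstimulated, 130, 167 and 138 CPM in CD3, 263, 359 and 296 CPM in CD3_CD28, and 94.0, 166 and 97.0 CPM in CD3_CD28_ICOS. Unstimulated replicate 3 lay just below the CD3 libraries and above 2 of the 3 CD3_CD28_ICOS libraries. P4ha1 rose by 1.07 ± 0.24 in log2 from CD3 to CD3_CD28 (adjusted p = 0.00242) and changed by -1.39 ± 0.24 from CD3_CD28 to CD3_CD28_ICOS (adjusted p = 0.000347). The rise from Unstimulated to CD3, 0.70 ± 0.24 (adjusted p = 0.0213), was lost in 5 of 23 alternatives, with an adjusted p of up to 0.0840.

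**Figure D2:**
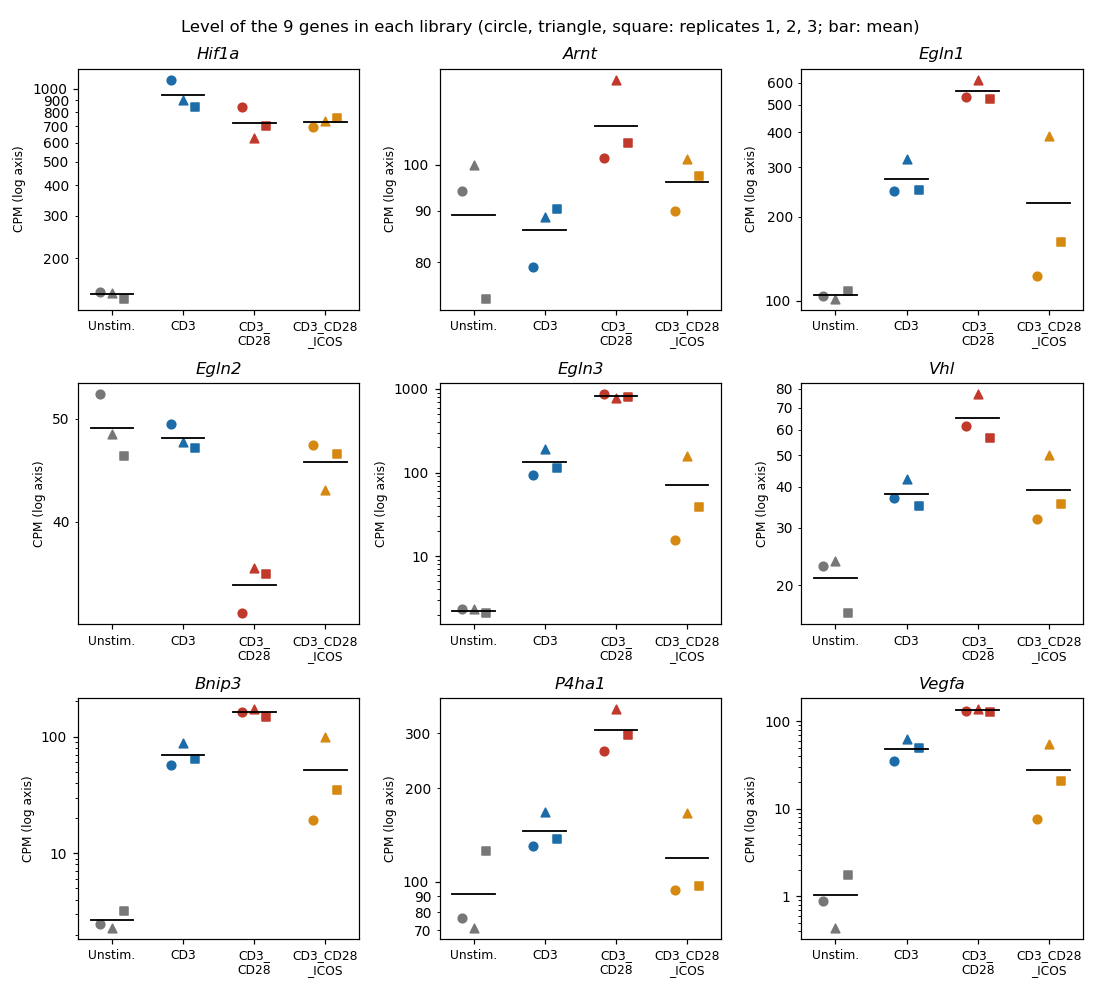
Level of each of the 9 genes in CPM (y axis, log scale, a separate scale per panel) in the 4 groups (x axis), with a marker per library and a bar at the group mean. CD3_CD28 holds the highest libraries for Egln1, Egln3, Vhl, Bnip3, P4ha1 and Vegfa and the lowest for Egln2, while Hif1a is highest in CD3.

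Across comparisons, the question was how each added signal moved the circuit. In CD3 against Unstimulated 7 of the 9 genes were called, all higher, where 69.8% of all tested genes were called, 43.6% higher and 26.3% lower. The groups did not overlap for 7 of the 9 genes, and for 76.9% of all genes. In CD3_CD28 against Unstimulated 9 were called, 8 higher and Egln2 lower, against 75.2% of all genes, 36.1% higher and 39.1% lower. No overlap was seen for 9 of the 9 genes, and for 76.7% of all genes. In CD3_CD28_ICOS against Unstimulated 6 were called, all higher, against 59.4% of all genes, 35.6% higher and 23.7% lower. No overlap was seen for 6 of the 9 genes, and for 64.5% of all genes. At such backgrounds, and with 3 genes bound to the filter, these counts alone do not set the circuit apart.

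Adding anti-CD28 to anti-CD3 changed all 9 genes, against 64.4% of all tested genes. Of these, 7 rose (Egln1, Egln3, Vhl, Bnip3, P4ha1, Vegfa and Arnt), where 18.7% of all genes rose, and 2 fell (Hif1a and Egln2), where 45.7% of all genes fell. The groups did not overlap for 8 of the 9 genes, all but Hif1a, and for 72.4% of all genes. The number called was 5 without CD3 replicate 1 and 5 without CD3_CD28 replicate 2. The median log2 fold change was 1.05 over the 9 genes and -0.24 over all tested genes. The split over all genes depended on scaling: 1837 rose and 4487 fell as deposited, 2882 and 3109 under quantile normalization, and 3154 and 2808 under median-of-ratios scaling. Those scalings moved the median of all genes from -0.24 to -0.03 and 0.00, and the 7 rising genes kept their direction under both.

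In CD3_CD28_ICOS against CD3_CD28, 7 of the 9 genes were called, against 63.0% of all tested genes. Egln1, Egln3, Vhl, Bnip3, P4ha1 and Vegfa were lower, where 24.5% of all genes were lower, and Egln2 was higher, where 38.5% were higher. Hif1a and Arnt did not pass the test, although Arnt passed as lower under quantile normalization (-0.30, adjusted p = 0.0195) and median-of-ratios scaling (-0.38, adjusted p = 0.00419; range 0.00419 to 0.495). The groups did not overlap for 8 of the 9 genes, all but Hif1a, and for 64.8% of all genes. This comparison shares the CD3_CD28 libraries with the preceding comparison, so opposite signs in the 2 are not separate observations. B cell markers, which were 9.22 to 14.5 CPM in CD3_CD28 and 267 CPM or more in CD3 and CD3_CD28_ICOS, differed along the same comparisons, and their part in these results was not tested.

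In CD3_CD28_ICOS against CD3, 1 of the 9 genes was called, Hif1a, which fell by 0.36 ± 0.11 on the log2 scale (adjusted p = 0.0157). Of all tested genes 47.7% were called, 18.9% higher and 28.7% lower, and groups did not overlap for 58.5% of them and for 1 of the 9 genes, again Hif1a. That call was lost under median-of-ratios scaling (adjusted p = 0.0709) and without CD3 replicate 1 (adjusted p = 0.0819; range 0.00641 to 0.0819). The changes of Egln3, -1.45 ± 0.66 (adjusted p = 0.102), and Vegfa, -1.15 ± 0.55 (adjusted p = 0.112), did not pass. Among the 3 stimulated groups as a whole, limma's F test called all 9 genes, against 80.7% of all tested genes.

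**Figure D3:**
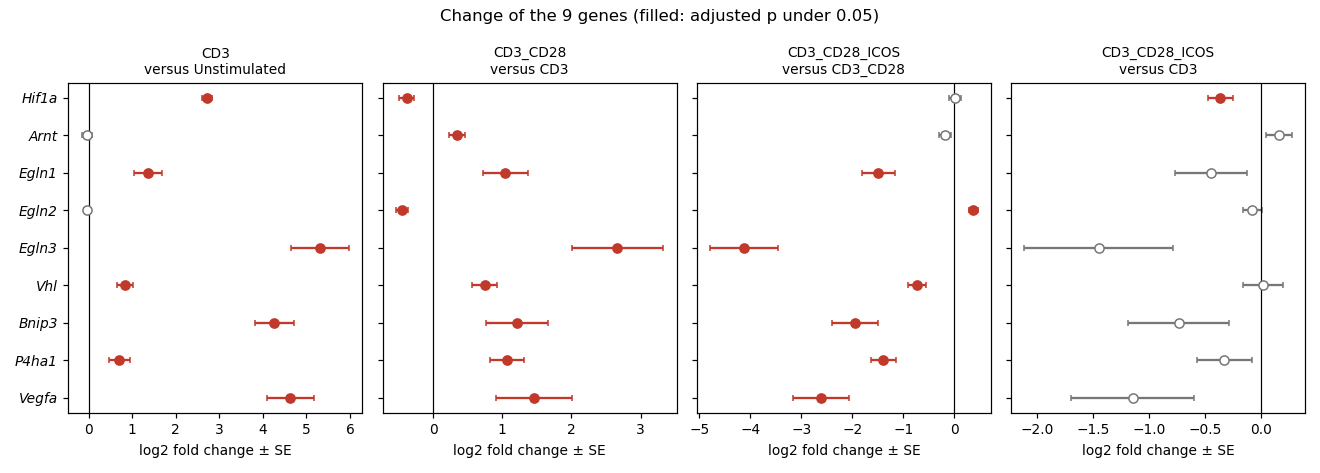
Log2 fold change ± SE (x axis, a separate scale per panel) of the 9 genes (y axis) in 4 comparisons, filled where the adjusted p was under 0.05. Egln3 has the largest change of the 9 in the first 3 panels, and in CD3_CD28_ICOS against CD3 only Hif1a is filled.

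The order of the group means was Unstimulated, CD3_CD28_ICOS, CD3 and CD3_CD28, from low to high, for Egln1, Egln3, Bnip3, P4ha1 and Vegfa. For none of these 5 did CD3_CD28_ICOS and CD3 differ beyond their spread with all libraries, and for P4ha1 neither did Unstimulated and CD3_CD28_ICOS (0.38 ± 0.24, adjusted p = 0.200). Without Unstimulated replicate 3 the latter was 0.63 and passed the test (adjusted p = 0.0311; range over the alternatives 0.0306 to 0.677). Vhl had CD3 and CD3_CD28_ICOS at 38.1 ± 3.72 and 39.2 ± 9.71 CPM (SD, n = 3), a difference of 0.02 ± 0.18 in log2. Hif1a did not follow this order: CD3 was highest, at 945 ± 132 CPM.

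CD3_CD28_ICOS replicate 2 carried much of the spread in its group. Against the mean log2 level of the other 2 libraries it was higher by 2.62 for Egln3, 2.03 for Vegfa, 1.89 for Bnip3, 1.45 for Egln1, 0.79 for P4ha1 and 0.57 for Vhl. Among all 9826 genes ranked by that difference, Egln3 was at rank 6, Vegfa at 23, Bnip3 at 27, Egln1 at 54, P4ha1 at 218 and Vhl at 395. The difference was 0.02 for Hif1a, 0.11 for Arnt and -0.12 for Egln2. The library thus stood apart in the 5 targets and in Vhl but lay between the other 2 for Hif1a.

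The same library stood apart in glycolysis. The 21 glycolytic HIF targets summed to 6650, 14730 and 8015 CPM in the CD3_CD28_ICOS libraries, 11256, 13492 and 10858 CPM in CD3, 19894, 22651 and 20589 CPM in CD3_CD28, and 2417, 2416 and 2267 CPM in Unstimulated. Replicate 2 was the highest of its group for 21 of 21 glycolytic genes and for 30 of 34 other HIF targets, against 27.9% of all tested genes. It also had the lowest summed B cell markers of its group, at 267 CPM against 737 and 638 CPM, and 14.8 CPM of myeloid markers against 43.4 and 33.9 CPM, and the part of other cells in its position was not tested. In CD3, replicate 2 was likewise the highest for 19 of 21 glycolytic genes and 6 of the 9 circuit genes, against 29.7% of all tested genes, with smaller differences of up to 0.88 in log2. In CD3_CD28, replicate 2 was the highest for 16 of 21 glycolytic genes and 7 of the 9 circuit genes, against 44.4% of all tested genes, with differences of up to 0.38 for the circuit genes.

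Without CD3_CD28_ICOS replicate 2, 6 of the 9 genes were called in CD3_CD28_ICOS against CD3, all lower, where 44.5% of all 9779 genes then tested were called, 18.0% higher and 26.5% lower. That library was singled out as the highest of its group for Egln3, Vegfa, Bnip3, Egln1 and P4ha1. Leaving it out was bound to lower their means and narrow their spread, so these calls are no separate support for a difference. The log2 fold changes were then -2.33 for Egln3 (adjusted p = 0.000667), -1.83 for Vegfa (adjusted p = 0.00297), -1.37 for Bnip3 (adjusted p = 0.000570), -0.93 for Egln1 (adjusted p = 0.000138) and -0.59 for P4ha1 (adjusted p = 0.0422). The means of the other 2 libraries were 27.2 CPM for Egln3 and 14.1 CPM for Vegfa, against 134 and 48.6 CPM in CD3. Over all alternatives the adjusted p ran from 0.000632 to 0.286 for Egln3, 0.00217 to 0.337 for Vegfa, 0.000570 to 0.653 for Bnip3, 0.000138 to 0.792 for Egln1 and 0.00189 to 0.617 for P4ha1. Against CD3_CD28, 7 genes were called with the library and 7 without it.

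**Figure D4:**
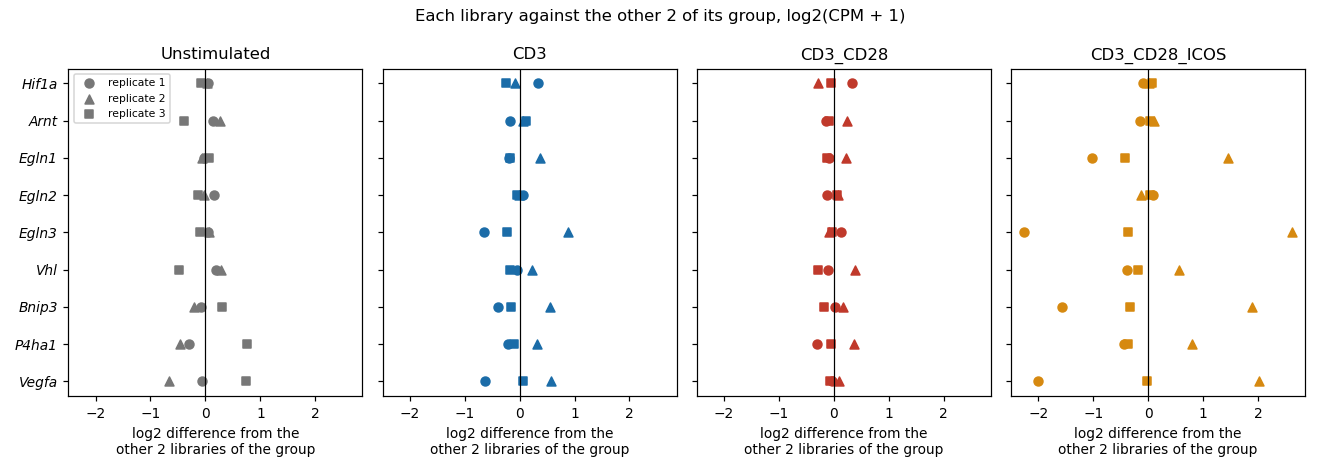
Difference of each library from the mean log2(CPM + 1) of the other 2 libraries of its group (x axis) for the 9 genes (y axis), with a panel per group and a marker shape per replicate. In CD3_CD28_ICOS, replicate 2 lies 1.45 to 2.62 to the right for Egln1, Egln3, Bnip3 and Vegfa and close to 0 for Hif1a, Arnt and Egln2.

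Other HIF targets were described from a list of 44, of which 34 were tested. In CD3_CD28 against CD3, 23 rose and 3 fell, where 18.7% of all tested genes rose and 45.7% fell, with a median log2 fold change of 1.00 against -0.24 over all genes. In CD3_CD28_ICOS against CD3_CD28, 3 rose and 27 fell, where 38.5% of all genes rose and 24.5% fell, with a median of -1.49 against 0.13. Of the 34 genes, 5 passed the filter through CD3_CD28 only, so their calls in these 2 comparisons were bound to it. In CD3_CD28_ICOS against CD3, 4 rose and 7 fell, where 18.9% and 28.7% of all genes did, and without CD3_CD28_ICOS replicate 2 the number called was 19 in place of 11. Replicate 2 was the highest of its group for 30 of the 34, so the larger number was bound to leaving it out. Among the 5 that passed through CD3_CD28 only was Nos2, inducible nitric oxide synthase, with 0.478 ± 0.227 CPM under anti-CD3 alone and 80.3 ± 18.0 CPM with anti-CD28 added, given as levels with no test. Tfrc, the transferrin receptor, fell by 0.80 ± 0.21 (adjusted p = 0.00532), which median-of-ratios scaling took to an adjusted p of 0.0534 (range 0.000289 to 0.0534). Hmox1, heme oxygenase, was at 1.96 ± 0.868 CPM in CD3 and 42.9 ± 21.9 CPM in Unstimulated. It reached 10 CPM in no CD3 library and entered the test through Unstimulated and CD3_CD28, so no test is given. Hmox1 is also a macrophage gene, and myeloid markers moved the same way in that comparison. Between CD3 and CD3_CD28 they parted. Mean Hmox1 was 6.52 times as high in CD3_CD28, while the summed myeloid markers averaged 53.75 CPM in CD3 and 17.78 CPM in CD3_CD28. The part of myeloid cells was not tested.

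Of the 21 glycolytic targets, 20 rose in each stimulated group against Unstimulated, where 43.6, 36.1 and 35.6% of all genes rose in CD3, CD3_CD28 and CD3_CD28_ICOS. Of the 21, 4 reached 10 CPM in no Unstimulated library, Hk2 among them, so their calls there were bound to the filter. With anti-CD28, 15 rose and 0 fell, against 18.7 and 45.7% of all genes, and in CD3_CD28_ICOS against CD3_CD28 0 rose and 19 fell, against 38.5 and 24.5%; 1 of the 21 passed the filter through CD3_CD28 only. Hk2, a hexokinase, the first enzyme of the pathway, was at 3.10 ± 1.48 CPM in Unstimulated, 147 ± 37.7 CPM in CD3, 458 ± 5.62 CPM in CD3_CD28 and 88.7 ± 70.9 CPM in CD3_CD28_ICOS (SD, n = 3). Slc2a3, a glucose transporter, was at 743 ± 224 CPM under anti-CD3 and rose to 2070 ± 225 CPM with anti-CD28 (1.51 ± 0.56, adjusted p = 0.0384), a call lost in 8 of 23 alternatives (range 9.62e-05 to 0.110). In CD3_CD28_ICOS against CD3, 7 of the 21 fell, against 28.7% of all genes, among them Pgam1, phosphoglycerate mutase (-0.90 ± 0.19, adjusted p = 0.00230). Eno2, an enolase, also fell, to 0.408 times its mean in CD3. It is the gene that passed the filter through CD3_CD28 only, so no test is given. The number called in that comparison was 16 without CD3_CD28_ICOS replicate 2, 2 without CD3_CD28_ICOS replicate 3 or CD3 replicate 2, 3 without CD3_CD28_ICOS replicate 1 and 4 without CD3 replicate 3. CD3_CD28_ICOS replicate 2 was the highest of its group for all 21 genes, so the 16 was bound to leaving it out.

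**Figure D5:**
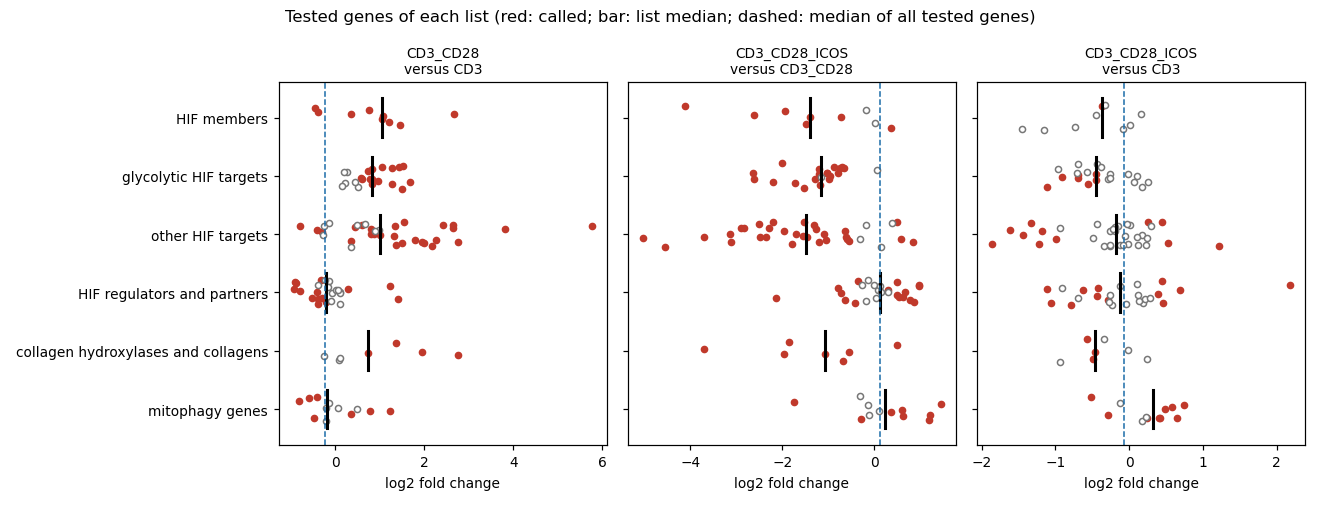
Log2 fold change (x axis, a separate scale per panel) of the tested genes of 6 lists (rows) in 3 comparisons, red where called, with a black bar at the list median and a dashed line at the median of all tested genes. In CD3_CD28 against CD3 the list medians are 0.82 for glycolytic targets and 1.00 for other targets, against -0.24 for all genes.

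Regulators and partners of the factor moved in both directions. Of 25 tested, 3 rose and 11 fell with anti-CD28, shares near the 18.7% and 45.7% of all genes, with a median of -0.21 against -0.24 over all genes. Hif3a, an alpha subunit whose short forms act as inhibitors, was at 2.28 ± 0.750 CPM in Unstimulated, 18.0 ± 2.27 CPM in CD3, 43.5 ± 4.58 CPM in CD3_CD28 and 10.7 ± 8.02 CPM in CD3_CD28_ICOS. It rose by 1.23 ± 0.36 in log2 with anti-CD28 (adjusted p = 0.0110) and changed by -2.14 ± 0.36 in CD3_CD28_ICOS against CD3_CD28 (adjusted p = 0.000273). Epas1, which encodes the HIF-2 alpha subunit, had another pattern: 24.9, 31.7 and 20.7 CPM in Unstimulated, 2.81, 3.72 and 2.34 CPM in CD3, a mean of 9.87 ± 4.48 CPM in CD3_CD28, and 13.2, 27.0 and 13.1 CPM in CD3_CD28_ICOS. Its log2 fold change was -2.75 ± 0.31 in CD3 against Unstimulated and 2.18 ± 0.31 in CD3_CD28_ICOS against CD3. Epas1 reached 10 CPM in no CD3 library and entered the test through the other groups, so no test is given for these changes. In bulk RNA, the levels of Hif1a and Epas1, the better known alpha subunits, thus moved oppositely in CD3 against Unstimulated. Markers of other cells differed there too. Summed myeloid markers averaged 381.6 CPM in Unstimulated and 53.75 CPM in CD3, and 7 endothelial and stromal markers 312.6 and 205.3 CPM. B cell markers went the other way. The part of other cells in the Epas1 levels was not tested.

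Of 7 tested genes of collagens and their modifying enzymes, 4 rose with anti-CD28 and 0 fell, where 18.7% of all genes rose and 45.7% fell. In CD3_CD28_ICOS against CD3_CD28 1 rose and 6 fell, where 38.5% rose and 24.5% fell. Of the 7, 2 passed the filter through CD3_CD28 only, and the list is too short for more than these counts. P4ha2, Plod1 and Plod2 are also on the list of other HIF targets, so the counts of these lists are not separate observations. P4ha2, another catalytic subunit of the collagen prolyl hydroxylase, averaged 9.15 ± 3.70 CPM under anti-CD3 and 65.7 ± 10.7 CPM with anti-CD28; it is among those 2, so no test is given. Plod2, a lysyl hydroxylase, rose from 10.7 ± 1.28 to 44.0 ± 4.33 CPM (1.95 ± 0.29, adjusted p = 0.000101). P4hb, the partner subunit of both P4ha1 and P4ha2 and named here for that role after its values were seen, rose from 617 ± 70.6 to 1596 ± 142 CPM (1.37 ± 0.18, adjusted p = 3.89e-05).

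Around Vegfa, 2 of the 9 relatives and receptors on the list could be tested. Vegfb, a related growth factor, was at 4.43 ± 0.600 CPM in Unstimulated, 10.9 ± 1.32 CPM in CD3, 14.2 ± 1.25 CPM in CD3_CD28 and 8.91 ± 0.843 CPM in CD3_CD28_ICOS. It passed the filter only through CD3 and CD3_CD28, so no test is given. Nrp1, a co-receptor, fell by 0.93 ± 0.23 with anti-CD28 (adjusted p = 0.00324). The receptor genes Kdr and Flt1 stayed below 1 CPM in all libraries, at up to 0.437 and 0.666 CPM.

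Around Bnip3, 12 mitophagy genes were tested, and 3 rose and 4 fell with anti-CD28, where 18.7% of all genes rose and 45.7% fell. Gabarapl1, an autophagosome protein, was at 5.08 ± 1.41 CPM in Unstimulated and between 29.8 and 39.7 CPM in CD3, and it entered the test through the stimulated groups. It averaged 83.1 ± 18.0 CPM in CD3_CD28 and 23.7 ± 2.96 CPM in CD3_CD28_ICOS. Pink1, a kinase that tags damaged mitochondria, had its highest mean in Unstimulated, at 106 ± 10.2 CPM, and its lowest in CD3_CD28, at 42.6 ± 6.15 CPM. It was 1.21 ± 0.12 higher in CD3_CD28_ICOS than in CD3_CD28 (adjusted p = 1.17e-06), whereas Bnip3 was lower there.

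Genes whose profile over the 12 libraries was closest to each of the 9 were taken by the root mean square difference of centred log2(CPM + 1) values among 8947 candidates. The nearest to Egln3 were Vldlr (0.53), Hk2 (0.65) and Vegfa (0.76), beside an SD of 2.97 for Egln3 itself. Bnip3 was nearest to Slc2a3 (0.31), Vegfa (0.32) and Plod2 (0.41), and Vegfa to Bnip3 (0.32), Vldlr (0.38) and Prelid2 (0.46). Egln1 was nearest to Ppme1 (0.16), Higd1a (0.17) and Cep170 (0.18), P4ha1 to Arl5b (0.23), Rras (0.24) and Ing2 (0.24), and Vhl to Chchd5 (0.11), Soat1 (0.15) and Nfxl1 (0.15). The nearest to Hif1a were Gfi1 (0.17), Zfp52 (0.20) and Cyp51 (0.21). Of the 9 genes, only Egln3, Bnip3 and Vegfa had another of the 9 among their 3 nearest. Arnt and Egln2 varied little, with SDs of 0.18 and 0.20, so that small differences to Kdm4c (0.08) and Fam192a (0.06) carry little information. These values describe the libraries and share their group structure.

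In the authors' deposited table of their own comparisons, a false discovery rate below 0.05 was given for 7, 7 and 6 of the 9 genes in CD3, CD3_CD28 and CD3_CD28_ICOS against the control. It was given there for 6 in CD3 against CD3_CD28, 5 in CD3_CD28_ICOS against CD3_CD28 and 1 in CD3_CD28_ICOS against CD3, per the authors' deposited table. Genes called by limma but above that rate were Arnt (0.297) and Egln2 (0.134) in CD3_CD28 against the control. In CD3 against CD3_CD28 they were Arnt (0.302), Egln2 (0.256) and Vhl (0.0816). In CD3_CD28_ICOS against CD3_CD28 they were Egln2 (0.368) and Vhl (0.0967).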

How the data were processed

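RNA sequencing was done on 12 libraries, 4 groups of 3, with groups and replicate numbers taken from the sample labels. Per the submitters' processing notes, Partek version 10, DESeq2 and mouse build mm10 were used; the aligner, counting method, strand use and annotation were not given in the sources used here. The authors deposited CPM values with 1e-04 added to each of 17203 genes, as the column sums show. Depth was estimated from the step between low values. Since only 76.4 to 81.4% of values up to 1.2 CPM were whole multiples of that step (tolerance 0.02), reads could not be recovered and no count test was run. The authors also deposited a table with p-values, false discovery rates and log2 ratios of their comparisons. Its group named Combo_Costim was taken as CD3_CD28_ICOS, because its fitted means matched that group within 1% for 100% of 8957 genes at 10 CPM or more.

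The 9826 genes that reached 10 CPM in 3 or more libraries were tested on log2(CPM + 1). The 4 groups were fitted jointly in limma 3.58.1 (R 4.3.3), with robust estimation and a trend of variance with mean. The pseudocount understates the change of low genes. Tests are two-sided, and each SD is over 3 libraries. The fit was tested on simulated data in which every group had the same spread, unlike the wide spread of CD3_CD28_ICOS here. That test therefore does not show how unequal spread affects the calls. An exact permutation test of 3 against 3 libraries cannot go below 0.10 and was not used. Alternatives were other pseudocounts, filters and scalings, a replicate block, no trend, only the groups compared, and each library left out. Chosen after seeing the data were leaving out the ribosomal RNA gene, and leaving out Unstimulated replicate 3, CD3_CD28 replicate 1 and CD3_CD28_ICOS replicate 2 together. The 9 genes and the lists were chosen with earlier results of these data known. Up to 2 genes per list, comparison and direction, the most changed of the called genes without overlap, could be named, with the 3 nearest profiles of each of the 9 genes. A result that this rule allows is not reported here. Gene positions are from the deposited table, and exon lengths are from GENCODE M21. Of the per-sample columns, 0 were left unused.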

Additional observations from a re-analysis of the deposited data

How the results depend on the processing

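Among the 19 counts of called genes, 15 moved by less than 1.5 times under every alternative. The number of the 9 genes called in CD3_CD28 against CD3 was 9, and 5 to 9 when 1 library was left out; it was 5 without CD3 replicate 1 and 5 without CD3_CD28 replicate 2. In CD3_CD28_ICOS against CD3 it was 1, but 0 under median-of-ratios scaling, 6 with 3 libraries left out together, and 0 to 6 when 1 library was left out (0 without CD3 replicate 1). In that comparison, other HIF targets numbered 11, 8 to 19 with 1 library left out and 19 with 3 left out; glycolytic targets numbered 7, 2 with only the groups compared, 2 to 16 with 1 library left out and 16 with 3 left out.

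Changes that turned sign were close to 0 and not called in the settings where they turned. Hif1a in CD3_CD28_ICOS against CD3_CD28 was 0.02, but -0.19 under median-of-ratios scaling, -0.04 without the ribosomal RNA gene and -0.078 to 0.131 with 1 library left out. Arnt in CD3 against Unstimulated was -0.04, and -0.173 to 0.045 with 1 library left out. Arnt in CD3_CD28_ICOS against Unstimulated was 0.12, but -0.001 under quantile normalization, -0.05 with 3 libraries left out and -0.013 to 0.205 with 1 left out. Egln2 in CD3 against Unstimulated was -0.073 to 0.023 with 1 library left out, and in CD3_CD28_ICOS against CD3 it was 0.039 under quantile normalization. Vhl in CD3_CD28_ICOS against CD3 was -0.171 with 3 libraries left out and -0.171 to 0.148 with 1 left out. Where fewer libraries were not the setting, the cause was not tested.

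The replicate numbers were not taken as pairs, since in no comparison did all 3 same-numbered pairs correlate above 0.1 (CD3_CD28_ICOS against CD3 gave 0.09, 0.41 and 0.34). The replicate 2 libraries of the 3 stimulated groups did correlate with each other above 0.1 (0.205 for CD3_CD28 with CD3, 0.194 for CD3_CD28_ICOS with CD3_CD28 and 0.408 for CD3_CD28_ICOS with CD3), a hint from the data and not from the design. With the replicate block, 9 of the 9 genes were called in CD3_CD28 against CD3, 7 in CD3_CD28_ICOS against CD3_CD28 and 1 in CD3_CD28_ICOS against CD3, and the block changed no call of the 9 genes. Depth limited Vegfa in Unstimulated most, at 12 to 40 reads.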

Other observations

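The core ACGTG or GCGTG was also counted in the RefSeq promoters of the lists. It lay in 31 of 41 promoters of other HIF targets, 25 of 33 of glycolytic targets, 10 of 13 of mitophagy genes and 13 of 22 of regulators and partners, against 43.8% of all 32851 promoters. The palindrome CACGTG, which holds the core on both strands, lay in 7.15% of all promoters. Whether the core bears on the direction in which these lists moved was not tested. These counts describe letters, were made after the lists were known to move, and carry no test.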
